A study of Mus musculus with 5 samples.

Results

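The genes of the thermogenic programme and of beta-adrenergic signalling were read in tumours of mice kept in the cold. They are 9 of the 54113 named genes of the count table, chosen by symbol: the uncoupling proteins Ucp1, Ucp2 and Ucp3, the beta-adrenergic receptors Adrb1 and Adrb3, the deiodinase Dio2, the transcriptional regulators Ppargc1a and Prdm16, and the lipid droplet gene Cidea. All 9 were found. The study sequenced RNA of CRC tumours from mice housed for 2 weeks at 30 °C (3 libraries) or at 4 °C (2 libraries). All mice were C57BL/6 with no genetic change named, and the study grew its CRC tumours from MC-38, a mouse colon carcinoma line, so that both groups rest on a single cell line. The labels give neither the age nor the sex of the mice, and do not say whether a library pooled animals.

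In brown fat, noradrenaline from sympathetic nerves binds beta-adrenergic receptors, which raise cAMP through Gs and adenylyl cyclase. Protein kinase A then releases fatty acids and activates the transcription of thermogenic genes, with PGC-1α (Ppargc1a) as a coactivator, and the deiodinase encoded by Dio2 makes active thyroid hormone inside the cell. UCP1 lets protons pass the inner mitochondrial membrane without making ATP, so that the energy is given off as heat. UCP2 is found in many tissues, immune cells among them, and UCP3 mainly in skeletal muscle and brown fat. In the fat of the mice, the study reported UCP1 staining, mitochondrial content and glucose uptake, among other measures, but not the other members. The tumour libraries answer a narrower question, namely at what level these genes were read in the tissue labelled as tumour and whether that level differed between the temperatures.

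The cAMP response element (CRE) is a DNA motif through which this pathway can act on transcription. It is shown here for 4 members, the uncoupling proteins with the highest and the lowest level, and Dio2 and Ppargc1a, which cAMP is known to induce in brown fat. The windows are the 250 bases before the transcription start in RefSeq on GRCm38.p6, written 5′ to 3′ on the strand of the gene. Capitals mark each CRE half-site, TGACG, or CGTCA where it lies on the other strand. The windows lie at chr8:83290098-83290347 (+) for Ucp1, chr7:100493108-100493357 (+) for Ucp2, chr12:90739039-90739288 (-) for Dio2 and chr5:51567726-51567975 (-) for Ppargc1a.
Ucp1: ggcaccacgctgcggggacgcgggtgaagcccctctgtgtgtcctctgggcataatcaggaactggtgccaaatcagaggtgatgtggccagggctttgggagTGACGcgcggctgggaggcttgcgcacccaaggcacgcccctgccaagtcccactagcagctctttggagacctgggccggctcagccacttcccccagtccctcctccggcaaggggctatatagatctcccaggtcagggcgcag
Ucp2: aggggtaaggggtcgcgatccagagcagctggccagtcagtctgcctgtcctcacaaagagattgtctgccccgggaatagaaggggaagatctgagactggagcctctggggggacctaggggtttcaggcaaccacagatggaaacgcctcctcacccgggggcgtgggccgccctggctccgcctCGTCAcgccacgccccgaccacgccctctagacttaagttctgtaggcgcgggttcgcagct
Dio2: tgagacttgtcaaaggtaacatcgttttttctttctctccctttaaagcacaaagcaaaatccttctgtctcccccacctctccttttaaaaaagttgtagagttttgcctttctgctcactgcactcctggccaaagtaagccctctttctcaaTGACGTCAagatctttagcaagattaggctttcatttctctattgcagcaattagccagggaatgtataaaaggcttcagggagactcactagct
Ppargc1a: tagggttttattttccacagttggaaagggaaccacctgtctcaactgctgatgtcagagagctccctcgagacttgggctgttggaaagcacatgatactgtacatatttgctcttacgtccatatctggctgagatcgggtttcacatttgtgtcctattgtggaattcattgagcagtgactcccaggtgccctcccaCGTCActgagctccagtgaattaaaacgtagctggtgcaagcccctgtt
Of the 9 members, 7 had such a window and 5 of these held a half-site, namely the 4 shown and Adrb1. Over all genes, 17.8% of 32851 windows held one. The window of Dio2 held the full palindrome TGACGTCA, in which both half-sites overlap, and it ended 88 bases before the start. The full motif stood in 1.55% of all windows. A match describes the letters in the window and says nothing on its own about binding. Sequence farther from the start was not searched.

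Library totals ran from 16191708 to 20320525 reads assigned to named genes. The floor was set at 3 reads, which is 0.148 to 0.185 CPM (counts per 1000000 counts of the library). The tissue label was checked against marker genes, which went against a tissue made of carcinoma cells alone. In 30 °C replicate 2, 10 genes of pancreatic acinar cells took 18% of all reads (95% Wilson interval 17.98% to 18.02%) against at most 0.161% elsewhere. Summed over 8 genes each, B cell markers lay between 1319 and 3984 CPM and neutrophil markers between 2593 and 12950 CPM. By contrast, 8 epithelial markers summed to 17.8 to 123 CPM. Their highest sums were those of 30 °C replicate 2 (123 CPM) and 4 °C replicate 2 (91.6 CPM), the libraries with the most acinar reads. The 5 markers of splenic mesenchyme summed to 28.9 to 78.1 CPM, and Tlx1, a transcription factor needed to form the spleen, had 173 to 563 counts. Whether the samples held spleen or pancreas was not tested, and "tumour" below means a library labelled so. Such intervals cover counting error only. In bulk tissue, fewer cells of a type and less RNA per cell cannot be told apart. The study calls the libraries biological samples, and neither it nor the labels say here that each came from a separate mouse, so p-values measure only the spread between these libraries.

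Ucp2, on chromosome 7 at 100493337 to 100502020 (GRCm38), was the most abundant member. It had 22798, 14637 and 24172 counts in the tumours at 30 °C and 21470 and 21912 counts in those at 4 °C. The groups overlapped, and the lowest count was that of 30 °C replicate 2, which carried the acinar transcripts. In CPM, Ucp2 stood at 1304 (95% Wilson interval 1287 to 1321), 885 (871 to 900) and 1190 (1175 to 1205) at 30 °C and at 1153 (1138 to 1169) and 1353 (1335 to 1371) at 4 °C. The counting error was thus far smaller than the spread between tumours. With the acinar counts taken out of the library total, 30 °C replicate 2 reached 1080 CPM, and after TMM scaling, edgeR's correction for library composition, it stood at 1202 CPM, above 30 °C replicate 3 (1055) and 4 °C replicate 1 (1068). Per kilobase of exon, Ucp2 ranked between 293 and 330 among 53381 genes of known length in the 5 libraries.

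Between the temperatures, Ucp2 did not differ beyond the spread. After TMM scaling it stood at 1157 ± 88.1 CPM (SD, n = 3) at 30 °C and at 1190 ± 173 CPM (SD, n = 2) at 4 °C. Expressed as a log2 fold change, 4 °C over 30 °C, the difference was 0.041 with a standard error (SE) of 0.19 (adjusted p = 0.973 in the quasi-likelihood test of edgeR). The 95% interval of that difference ran from −0.41 to 0.49. Macrophages and lymphocytes express Ucp2. The summed level of 8 macrophage markers ranged from 1136 to 3238 CPM at 30 °C and from 1920 to 2708 CPM at 4 °C. Its part in the level of Ucp2 was not tested. On the opposite strand, Dnajb13 overlaps Ucp2 and had 140 to 205 counts, and since the strand setting of the counting is not given, reads of the overlap cannot be told apart.

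Ucp1, the uncoupling protein that defines thermogenic fat, was at or under the floor in all 5 libraries. It had 0, 0 and 2 counts at 30 °C and 1 and 0 counts at 4 °C. Over the group totals this is 0.0368 CPM at 30 °C (exact binomial 95% interval 0.00446 to 0.133) and 0.0287 CPM at 4 °C (0.000727 to 0.160). The intervals overlap, and a difference was not detectable at this depth. The main edgeR fit formed no fold change because Ucp1 did not pass its filter on low counts. The gene spans bases 83290352 to 83298452 of chromosome 8 (GRCm38).

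Ucp3 lies next to Ucp2 on chromosome 7, on the same strand and with 6904 bases between both genes. It had 2, 7 and 10 counts at 30 °C and 7 and 8 counts at 4 °C, which is below the filter on low counts. The mean was 0.343 ± 0.201 CPM (SD, n = 3) at 30 °C and 0.435 ± 0.0834 CPM (SD, n = 2) at 4 °C (two-sided exact permutation p = 0.8, where 3 tumours against 2 cannot go below 0.2). The groups overlapped, and 30 °C replicate 1 was the single library under the floor. Gm10603, annotated on the opposite strand of Ucp3, had 76 to 203 counts, more than Ucp3 in every library, so the few reads on Ucp3 are uncertain. Skeletal muscle markers, 8 in all, summed to 8.23 to 11.3 CPM at 30 °C and to 4.84 to 9.08 CPM at 4 °C. Only 2 of the 8 had over 3 counts in every library, and Myh4, a myosin of fast muscle fibres, was at 0 in all. Among the mitochondrial carriers related to the uncoupling proteins, Slc25a14 (UCP5) had 60 to 95 counts and a log2 fold change of −0.024 (edgeR, SE 0.39, adjusted p = 0.991), while Slc25a27 (UCP4) had 4 to 13 counts and was not tested.

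**Figure D1:**
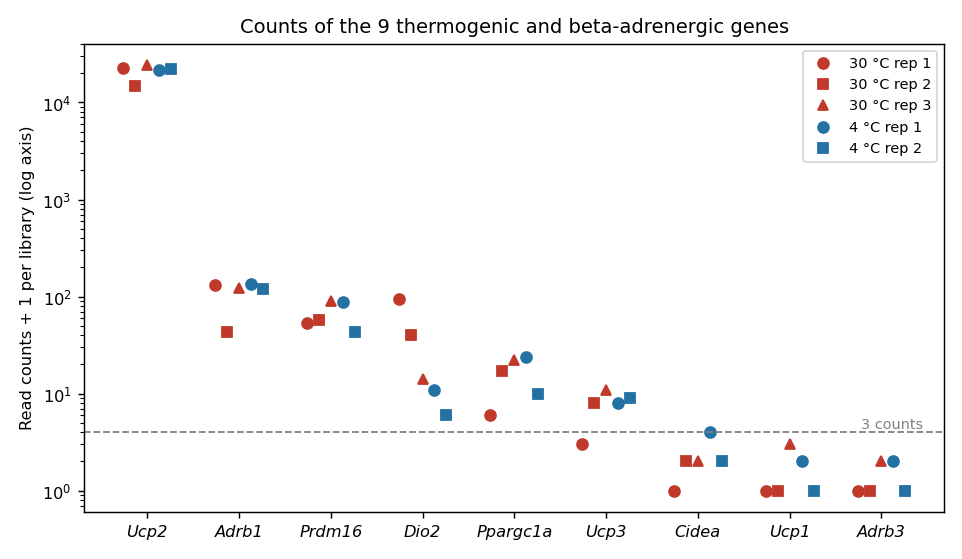
Read counts of the 9 genes in each library, plotted as counts + 1 on a log axis; red symbols are the 3 tumours at 30 °C and blue symbols the 2 tumours at 4 °C, and the dashed line marks 3 counts. Ucp2 sits at 14637 counts or more in every library, whereas Cidea, Ucp1 and Adrb3 lie at or under the line in all 5.

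Of both beta-adrenergic receptors, only Adrb1 was read above the floor. Adrb1, on chromosome 19 at 56722199 to 56733113 (GRCm38), encodes the β1-adrenoceptor, which couples to Gs and is best known from the heart. It had 132, 42 and 121 counts at 30 °C and 133 and 120 counts at 4 °C. The low value of 30 °C replicate 2 stood apart, and the other 4 libraries lay between 5.96 and 7.55 CPM. Without the acinar counts in the total, that library still had 3.10 CPM. The TMM-scaled level was 5.25 ± 1.79 CPM (SD, n = 3) at 30 °C and 6.90 ± 0.406 CPM (SD, n = 2) at 4 °C, which gives a log2 fold change of 0.39 (edgeR, SE 0.36, adjusted p = 0.868). Without 30 °C replicate 2 the log2 fold change was 0.15, and without 30 °C replicate 1 it was 0.65.

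Adrb3, on chromosome 8 at 27225776 to 27250616 (GRCm38, minus strand), encodes the β3-adrenoceptor, the main receptor for noradrenaline on rodent adipocytes. It had 0, 0 and 1 counts at 30 °C and 1 and 0 counts at 4 °C, at or under the floor throughout. The exact 95% intervals reached up to 0.102 CPM at 30 °C and 0.160 CPM at 4 °C, and no difference was detectable.

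Dio2, on chromosome 12 at 90724552 to 90738438 (GRCm38, minus strand), was the tested member with the largest difference between the temperatures, and the single one whose groups did not overlap among those above the floor. It encodes the type 2 deiodinase, which converts thyroxine into active triiodothyronine and is induced by cAMP in brown fat. It had 93, 39 and 13 counts at 30 °C and 10 and 5 counts at 4 °C. In CPM these were 5.32, 2.36 and 0.640 against 0.537 and 0.309. Groups without overlap and with the lower level at 4 °C were found in 11% of all genes tested. The lowest tumour at 30 °C was close to the higher tumour at 4 °C, and their 95% Wilson intervals, 0.374 to 1.10 and 0.292 to 0.989 CPM, overlapped. The high values were those of 30 °C replicates 1 and 2. The TMM-scaled level was 2.91 ± 2.21 CPM (SD, n = 3) at 30 °C and 0.398 ± 0.140 CPM (SD, n = 2) at 4 °C.

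The log2 fold change of Dio2 was −2.83 (SE 0.97), with a 95% interval from −5.16 to −0.49. It did not pass the correction over all genes (unadjusted p = 0.0248, adjusted p = 0.702 from edgeR). When single tumours were dropped, the estimate stayed between −3.32 and −2.16, and the unadjusted p of edgeR exceeded 0.05 without 4 °C replicate 1 (0.0845) and without 4 °C replicate 2 (0.129). The Wald test of DESeq2 gave −2.87 and an unadjusted p of 0.00263, and its own filter on low counts left Dio2 without an adjusted p. The filter on low counts asked for enough reads in 2 libraries, and Dio2 met it only in tumours at 30 °C, the group where it was higher.

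Neutrophil markers were read beside Dio2. Summed over 8 genes, they stood at 12950, 6072 and 3150 CPM at 30 °C and at 2593 and 3980 CPM at 4 °C. The same 2 libraries were thus highest for both. Below these the orders differed. The library of 4 °C replicate 2 was lowest for Dio2, but above 30 °C replicate 3 and 4 °C replicate 1 for the markers. All 8 markers had more than 3 counts in every library. Their part in the values of Dio2 was not tested. Gm26512 on the opposite strand had at most 4 counts.

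**Figure D2:**
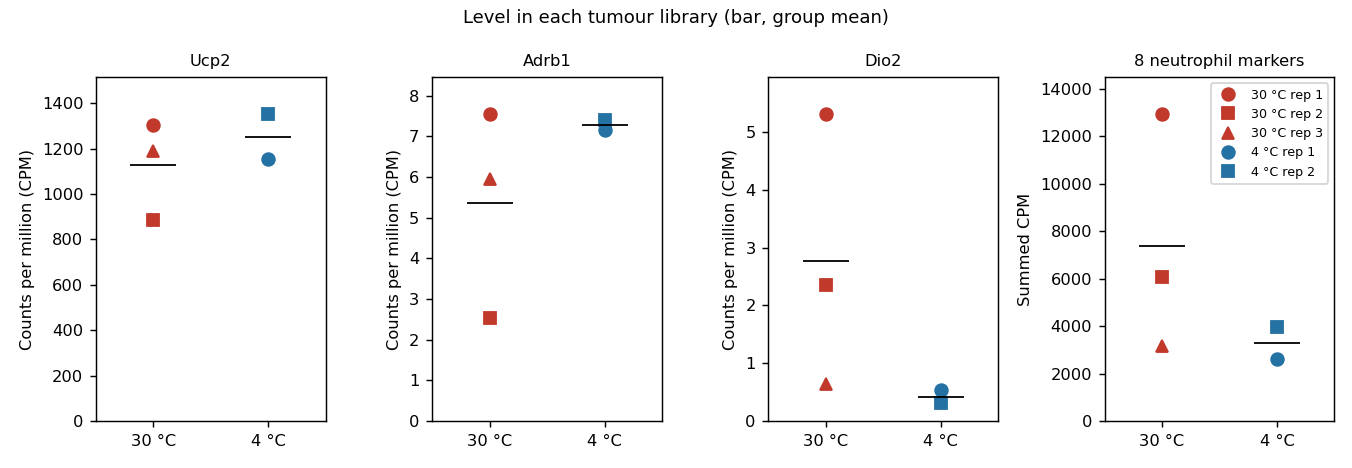
CPM of Ucp2, Adrb1 and Dio2 and the summed CPM of 8 neutrophil markers in each library, on linear axes that start at 0; symbols are single tumours and bars group means. Dio2 and the neutrophil markers are both highest in 30 °C replicate 1 and next in 30 °C replicate 2. Below these their orders differ. Ucp2 and Adrb1 are lowest in 30 °C replicate 2, whose totals include the acinar reads (after TMM scaling, Ucp2 is lowest in 30 °C replicate 3).

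The transcriptional regulators were low and did not differ beyond the spread. Prdm16, on chromosome 4 at 154316125 to 154636873 (GRCm38, minus strand), is a zinc-finger coregulator that directs brown fat fate and also acts in blood stem cells. It had 53, 56 and 89 counts at 30 °C and 86 and 42 counts at 4 °C. The groups overlapped, with the lowest level in 4 °C replicate 2 (2.59 CPM), and the highest was that of 4 °C replicate 1 in CPM (4.62) but of 30 °C replicate 2 after TMM scaling (4.60 CPM). Its log2 fold change was −0.14 (edgeR, SE 0.40, adjusted p = 0.955), and this turned to 0.010 without 30 °C replicate 2 and to 0.17 without 4 °C replicate 2.

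Ppargc1a, on chromosome 5 at 51454250 to 51567726 (GRCm38, minus strand), had 5, 16 and 21 counts at 30 °C and 23 and 9 counts at 4 °C. The groups overlapped and the spread was wide, with 0.832 ± 0.529 CPM after TMM scaling (SD, n = 3) at 30 °C and 0.842 ± 0.428 CPM (SD, n = 2) at 4 °C. The log2 fold change was 0.055 (edgeR, SE 0.72, adjusted p = 0.989), with a 95% interval from −1.69 to 1.80. Its sign turned without 30 °C replicate 1 (−0.37) and without 4 °C replicate 1 (−0.60).

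Cidea encodes a lipid droplet protein that is a marker of brown fat. It had 0, 1 and 1 counts at 30 °C and 3 and 1 counts at 4 °C, all at or under the floor. The exact 95% intervals over the group totals were 0.00446 to 0.133 CPM at 30 °C and 0.0313 to 0.294 CPM at 4 °C. They overlap, and the main edgeR fit formed no fold change because Cidea did not pass its filter on low counts.

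In the order of level per kilobase of exon, averaged over the 5 libraries, Ucp2 came first with 168 CPM per kilobase, followed by Adrb1 with 1.81, Prdm16 with 0.387, Dio2 with 0.315, Ppargc1a with 0.124 and Ucp3 with 0.121. Ucp2 and Adrb1 kept their places in every library. Prdm16, at 0.278 to 0.496 CPM per kilobase, lay within the range of Dio2, at 0.0531 to 0.915. Ppargc1a and Ucp3 did not differ beyond their spread and changed places when the length of the longest coding transcript was used (0.126 and 0.155 CPM per kilobase). The range of Dio2 also overlapped that of Ppargc1a, 0.0434 to 0.187 CPM per kilobase. Cidea, Ucp1 and Adrb3 were at or under the floor in every library and were not ordered.

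The adipocyte markers were read for comparison. Lep was at 0 in all libraries and Plin1, which coats the lipid droplets of adipocytes, had at most 3 counts. Adipoq had 0, 14 and 0 counts at 30 °C and 17 and 2 counts at 4 °C, and Cfd (adipsin) had 0, 150 and 0 against 128 and 53. Cfd was thus above the floor in 30 °C replicate 2 and in both tumours at 4 °C. Ucp1 and Adrb3 had 0 counts in 30 °C replicate 2 and in 4 °C replicate 2, and 1 count each in 4 °C replicate 1. The summed level of the 10 adipocyte markers, 80.5 to 105 CPM at 30 °C and 108 to 119 CPM at 4 °C, came mainly from the lipases Lipe and Pnpla2, which other cells express too.

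Over all genes, 16133 passed the filter on low counts, and 0 of them (0%) had an adjusted p under 0.05 in edgeR, while 1090 (6.76%) had an unadjusted p under 0.05. The Wald test of DESeq2 called 111 genes, or 0.891% of the genes it adjusted. A fit with the replicate number as a block called 0.273%, with 0 members among them. Of the 9 members, 5 passed the filter and 0 were called by edgeR or DESeq2. DESeq2 gave an adjusted p only for Ucp2, Adrb1 and Prdm16, so it could call no other member. In edgeR, 1 member, Dio2, had an unadjusted p under 0.05. Of all genes tested, 4.17% had such a p with the lower level at 4 °C, and 11% had groups that did not overlap with the lower level at 4 °C.

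The wider pathway was read from 9 lists, with 98 genes in all, members included. Of these, 71 were tested, 0 were called by edgeR, 37 were higher and 34 lower at 4 °C, and the median log2 fold change was 0.033, against 0.006 over all genes tested. At an unadjusted p under 0.05 in edgeR stood 7 of the 71 genes (9.86%), beside 6.76% of all genes. Groups that did not overlap were found in 16 (22.5%), beside 23.3% of all genes.

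Among the adrenergic receptors, all 5 tested genes had a higher value at 4 °C, with a median log2 fold change of 0.39 (0.617 without 30 °C replicate 1), and 0 of them were called. They were Adrb1 and 4 α-adrenergic receptors. Adra2b, an inhibitory receptor coupled to Gi, had 4, 2 and 12 counts at 30 °C and 20 and 21 counts at 4 °C. Its groups did not overlap, as in 12.2% of all genes with the higher level at 4 °C. The log2 fold change was 1.81 (edgeR, SE 0.60, adjusted p = 0.692). Its unadjusted p in edgeR was 0.0210, and 2.58% of all genes had one under 0.05 with the higher level at 4 °C. It met the filter on low counts in both tumours at 4 °C and in 1 at 30 °C. Adra1d had 14 to 49 counts at 30 °C and 61 and 35 at 4 °C, a log2 fold change of 0.76 (edgeR, SE 0.44, adjusted p = 0.803). The 8 B cell markers, all over 3 counts in every library, summed to 1319, 1346 and 3692 CPM at 30 °C and 3984 and 3171 CPM at 4 °C. The sums of 7 T cell markers, 231 to 503 CPM at 30 °C against 606 and 626 CPM at 4 °C, and of the 5 splenic mesenchyme markers, 28.9 to 54.0 against 67.5 and 78.1 CPM, were higher in both libraries at 4 °C than in any at 30 °C. All 7 T cell markers and 4 of the 5 mesenchyme markers had over 3 counts in every library. The part of these cell types in the values of Adra2b and the other receptors was not tested.

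Downstream of the receptor, all 16 genes of the list for Gs, adenylyl cyclase and protein kinase A were tested, 8 higher and 8 lower at 4 °C, with a median of 0.002 and 0 calls. Gnas, which encodes the α-subunit of Gs, had 3620 to 6750 counts. The genes with the smallest p were Adcy6, an adenylyl cyclase, and Prkar2b, a regulatory subunit of protein kinase A. Adcy6 stood at 47.7 ± 10.3 CPM after TMM scaling (SD, n = 3) at 30 °C and at 28.9 ± 0.936 CPM (SD, n = 2) at 4 °C, which gives a log2 fold change of −0.72 (edgeR, SE 0.22, adjusted p = 0.692). For Prkar2b the values were 110 ± 14.0 (SD, n = 3) and 70.5 ± 12.3 CPM (SD, n = 2), a log2 fold change of −0.65 (edgeR, SE 0.20, adjusted p = 0.692). In both, each tumour at 4 °C was below every tumour at 30 °C. This held for 3 of the 16 genes of the list and for 11% of all genes tested.

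The list of brakes on the receptor and on cAMP had 10 tested genes, 5 in each direction, with a median of 0.016. Arrb1, which encodes β-arrestin 1 and uncouples the receptor from Gs, stood at 220 ± 16.7 CPM (SD, n = 3) at 30 °C and at 156 ± 16.6 CPM (SD, n = 2) at 4 °C. Expressed as a log2 fold change the difference was −0.50 (edgeR, SE 0.17, adjusted p = 0.702). Rgs2, a regulator of G-protein signalling, was higher at 4 °C by 0.34 on the log2 scale (edgeR, SE 0.23, adjusted p = 0.834).

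**Figure D3:**
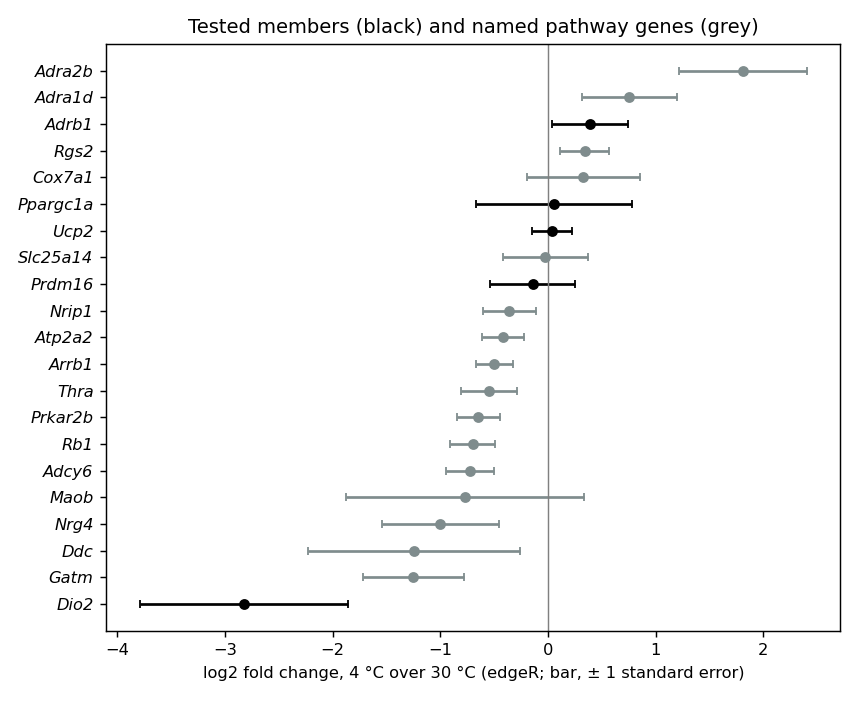
Log2 fold changes, 4 °C over 30 °C, of the 5 tested members (black) and of the pathway genes with the smallest p of each list (grey), with bars of ± 1 standard error from edgeR. Dio2 lies farthest to the left at −2.83 and Adra2b farthest to the right at 1.81, and no gene shown passed the adjusted threshold.

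Of 17 transcriptional regulators of the brown programme, 15 were tested, 10 higher and 5 lower, with a median of 0.055 and 0 calls. Ebf2, which marks brown fat precursors, had 0 counts in 4 libraries and 4 counts in 30 °C replicate 2, and Ppara had 0 to 5 counts. The smallest p belonged to Rb1, the retinoblastoma gene, at 108 ± 21.1 CPM (SD, n = 3) and 66.2 ± 1.39 CPM (SD, n = 2), a log2 fold change of −0.70 (edgeR, SE 0.21, adjusted p = 0.692). Nrip1, a corepressor of Ucp1 transcription, had −0.36 (edgeR, SE 0.25, adjusted p = 0.834), which was −0.731 without 4 °C replicate 1 and −0.08 without 4 °C replicate 2. Of 8 erythroblast markers, all above 3 counts in every library, 5 were lower at 4 °C and 3 higher, and their sum, which the globins dominate, was 13490 to 26090 CPM at 30 °C and 28920 to 35370 CPM at 4 °C. Their part in the values of Rb1 was not tested.

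Around Dio2, the list for thyroid hormone activation had 5 tested genes, 2 higher and 3 lower, with a median of −0.54. This median was −0.322 without 30 °C replicate 1, −0.14 without 30 °C replicate 2, −0.251 without 4 °C replicate 1 and −0.189 over the genes with at least 10 counts in every library. Thra, which encodes thyroid hormone receptor α, stood at 33.3 ± 8.67 CPM (SD, n = 3) and 22.8 ± 2.64 CPM (SD, n = 2), a log2 fold change of −0.55 (edgeR, SE 0.26, adjusted p = 0.762). The other deiodinases were too low to test. Dio1 had 0 to 20 counts, with the 20 in 30 °C replicate 2, and Dio3 at most 4.

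The effector genes of brown and beige fat were mostly below the filter. Of 16 genes, 5 were tested, 1 higher and 4 lower, with 0 calls, and 3 were at or under the floor in every library. Cox8b, a brown fat subunit of cytochrome c oxidase, had at most 2 counts and Elovl3 at most 4. Nrg4, a factor secreted by brown fat, had 25, 9 and 29 counts at 30 °C and 15 and 6 counts at 4 °C, a log2 fold change of −1.002 (edgeR, SE 0.54, adjusted p = 0.786). For Cox7a1 the log2 fold change was 0.33 (edgeR, SE 0.53, adjusted p = 0.925) at 5 to 10 counts.

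Genes of heat production without UCP1, namely creatine cycling and calcium pumping, were better covered. Of 11 genes, 8 were tested, 5 higher and 3 lower, with a median of 0.33 and 0 calls. That median turned to −0.145 over the genes with at least 10 counts in every library, to −0.028 without 30 °C replicate 3 and to −0.12 without 4 °C replicate 2. Gatm, the first enzyme of creatine synthesis, had 2108, 2641 and 1616 counts at 30 °C and 1050 and 992 counts at 4 °C. Its groups did not overlap, and 11% of all genes tested had such groups with the lower level at 4 °C. The log2 fold change was −1.25 (edgeR, SE 0.47, adjusted p = 0.709) and was −0.72 without 30 °C replicate 2, the library with the acinar transcripts. Gamt, the enzyme after it, had 116, 812 and 79 counts at 30 °C and 67 and 140 counts at 4 °C, with the highest count in that same library. Atp2a2, the calcium pump SERCA2, had a log2 fold change of −0.42 (edgeR, SE 0.19, adjusted p = 0.756).

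The genes that make, carry and break down catecholamines were read last. Th, the rate-limiting enzyme, and Slc6a2, the noradrenaline transporter, had 0 counts in all libraries, and Dbh had at most 1 count. All 3 were thus under the floor, which is 0.148 to 0.185 CPM. Of the 8 genes 5 were tested, all 5 with a lower value at 4 °C, a median of −0.18 and 0 calls. The median was −0.397 without 30 °C replicate 1, −0.088 without 30 °C replicate 2, −0.276 without 30 °C replicate 3 and −0.547 without 4 °C replicate 2. Ddc had a log2 fold change of −1.24 (edgeR, SE 0.99, adjusted p = 0.855) and turned to 0.050 without 30 °C replicate 2. For Maob, a catecholamine-degrading oxidase, it was −0.77 (edgeR, SE 1.10, adjusted p = 0.917), and between −0.146 without 4 °C replicate 1 and −1.924 without 4 °C replicate 2.

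**Figure D4:**
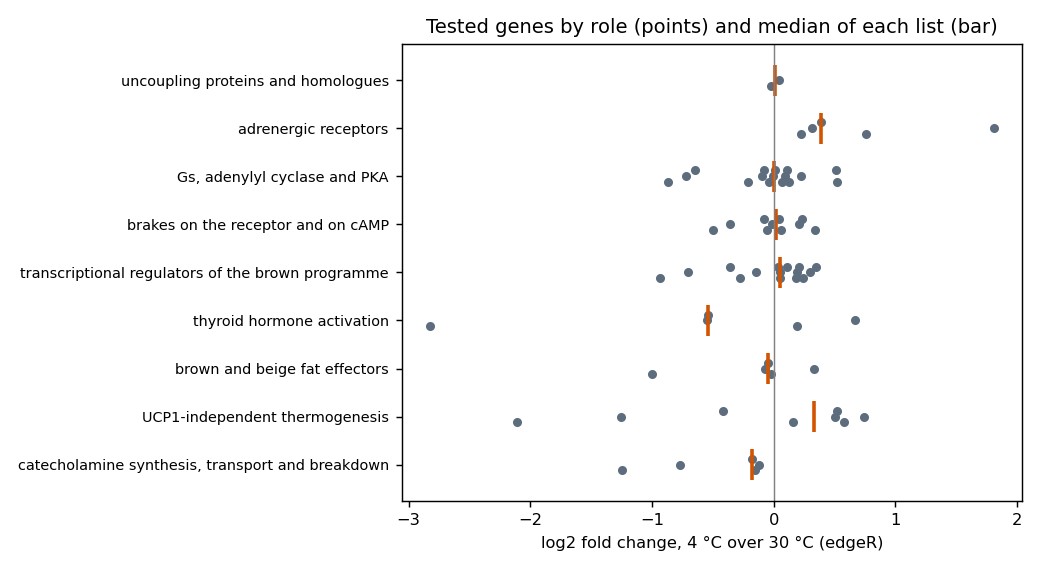
Log2 fold changes, 4 °C over 30 °C, of the tested genes of 9 lists (points) with the median of each list (orange bar). Medians range from −0.54 for thyroid hormone activation, which was −0.14 without 30 °C replicate 2, to 0.39 for the adrenergic receptors, which was 0.617 without 30 °C replicate 1.

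Genes whose profile was most like that of Ucp2 were read from the root mean square difference of log2 CPM, each centred on its own mean, over the 5 libraries. The nearest were Nutf2-ps1 (0.0061), Gm16286 (0.0158) and Prnp (0.0180). With 5 libraries and 16133 genes, no test was made, and nothing is said of shared function.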

How the data were processed

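RNA from 3 CRC tumours at 30 °C and 2 at 4 °C was sequenced from TruSeq libraries. The deposited table holds raw read counts per gene. For counting, the paper's methods name featureCounts with the Gencode vM19 annotation, which is on GRCm38. The submitters' processing notes name fastp, HISAT and RSEM instead, so which tool made the deposited counts is not settled here. The strand setting and the treatment of reads with several matches are not given in the sources used here. PCR duplicates were not resolved by molecular identifiers.

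Entries without a symbol (333, at most 0.0170% of counts) were left out. For 97 symbols on several entries, the one with the highest mean carried the symbol. The other entries were kept as separate rows and count among the 54113 named genes. Genes passed the filterByExpr filter of edgeR 4.0.16 (R 4.3.3), libraries were scaled by TMM, and 4 °C was compared with 30 °C by the robust quasi-likelihood test across all genes, with Benjamini-Hochberg adjustment at 0.05. The main test was edgeR because the values are counts; the study's methods name a Wald test, and that of DESeq2 1.42.0 was an alternative. Library totals were 16191708 to 20320525 counts, so that the floor of 3 counts is 0.148 to 0.185 CPM. Tested on simulated counts for 15857 genes, the procedure recovered 87.5% of 200 genes changed by a log2 of 2. The changed genes were drawn from well-covered genes only, and Dio2 and Ppargc1a had too few counts to be among them. Each gene's spread was set by the trend with level, not by its own spread. The share recovered thus does not carry over to these members. Positions and lengths came from GENCODE M21, promoters from RefSeq on GRCm38.p6.

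The genes named were the 9 members, the genes with the smallest p of each list and the genes closest in profile to Ucp2. Other genes, such as Gnas, Ebf2, Dio1, Cox8b, Gamt and Th, were picked with their values already known. The members and lists were chosen with earlier results of these data known. Alternatives were another scaling, other filters, DESeq2, a replicate block and leaving out each library.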

Additional observations from a re-analysis of the deposited data

How the results depend on the processing

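Over 13 alternatives, 0 members and 0 pathway genes passed an adjusted p of 0.05. DESeq2 gave no adjusted p to Dio2, Ppargc1a and other low genes, Adra2b among them, so these could not pass there. The filter of at least 10 counts in every library left out Dio2 and Ppargc1a. Over all genes, edgeR called 0, DESeq2 called 111 and edgeR with a replicate block 44. Whether the numbers shared between the groups pair the samples could not be decided. The deviations of the libraries numbered 1 correlated at −0.255 and those numbered 2 at 0.259. With 2 libraries at 4 °C, their deviations from the group mean mirror each other. A correlation with one is therefore the negative of that with the other, such as −0.255 and 0.255 for 30 °C replicate 1. With the replicate block the log2 fold change was −0.029 for Ucp2, −0.043 for Nutf2-ps1 and Gm16286 and −0.011 for Prnp. With upper-quartile scaling it was 0.036 for Slc25a14. The adjusted p of Dio2 in edgeR ranged from 0.135 with the block to 1.0 without 30 °C replicate 2.

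With one library left out, log2 fold changes ranged from −0.131 to 0.18 for Ucp2, 0.15 to 0.65 for Adrb1, −3.32 to −2.16 for Dio2, −0.597 to 0.49 for Ppargc1a, −0.58 to 0.17 for Prdm16, −0.58 to 0.371 for Slc25a14 −1.742 to 0.05 for Ddc, −1.924 to −0.146 for Maob, −0.731 to −0.08 for Nrip1, −1.621 to −0.595 for Nrg4 and 0.094 to 0.524 for Cox7a1. For the genes closest to Ucp2 they ranged from −0.139 to 0.175 for Nutf2-ps1, −0.141 to 0.178 for Gm16286 and −0.11 to 0.178 for Prnp. Genes at an unadjusted p under 0.05 in edgeR numbered 1090, but 520 without 30 °C replicate 2 and 540 without 4 °C replicate 2. Of 24 named genes, 16 kept their sign under every alternative run, and 13 of 117 list medians moved by more than the spread. With one library left out, medians changed sign for the uncoupling proteins (−0.354 to 0.277), Gs and protein kinase A (−0.159 to 0.098), the brakes (−0.171 to 0.194), the regulators (−0.135 to 0.108), the effectors (−0.244 to 0.094) and heat production without UCP1 (−0.12 to 0.451), and kept it for the adrenergic receptors (0.351 to 0.617), thyroid hormone activation (−0.688 to −0.14) and catecholamines (−0.547 to −0.088). The cause was not tested. Leaving out a tumour at 4 °C leaves 1, which is assumed to vary like the others. Depth limits Ucp1, Adrb3 and Cidea, with at most 3 counts a library.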
